A study of Chlorocebus sabaeus with 3 samples.

Results

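The genes described here are 10 markers of the contractile cells of vessel walls and other smooth muscle, 8 of smooth muscle (ACTA2, MYH11, MYLK, TAGLN, CNN1, SMTN, LMOD1, and DES) and 2 of pericytes (RGS5 and PDGFRB). They were chosen by name. All probe sets that carry exactly 1 of these symbols were read, which gave 33 probe sets of the 54675 on the array and 10 of the 19775 genes with a probe set of a single symbol. The 3 tissues came from the eye of a vervet monkey (Chlorocebus sabaeus): limbus, cornea, and conjunctiva, all from 1 eye per the study. Their RNA was read on human Affymetrix U133 Plus 2.0 arrays, with 1 array per tissue. No treatment is named, and the labels give no strain, sex, or age. The limbus and the cornea were dissected as the epithelium with part of the stroma under it, and the conjunctiva with the Tenon layer under it, so each value sums over all cell types of the piece.

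Smooth muscle cells contract when calcium activates the myosin light chain kinase, which phosphorylates myosin and lets it pull on actin filaments. Thin filament proteins such as calponin and transgelin bind this actin, and the intermediate filament protein desmin ties the filaments together. Pericytes sit on capillaries, share part of this equipment, and depend on signaling from platelet-derived growth factor through its receptor. The normal cornea has no blood vessels, whereas the limbus and the conjunctiva are vascular.

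Of the 8 smooth muscle genes, 7 were highest in the conjunctiva, compared with 7256 of all 19775 genes. The pericyte gene RGS5 was high in both vascular tissues. ACTA2, MYH11, MYLK, TAGLN, and CNN1 had values 3.31 to 6.80-fold higher in the conjunctiva than in the limbus and 3.28 to 25.8-fold higher than in the cornea. For RGS5 the limbus exceeded the cornea 15.2-fold and the conjunctiva exceeded it 14.4-fold. DES, LMOD1, and PDGFRB differed less between the tissues, and SMTN stayed between 78.4 and 82.4. Values are RMA intensities on a linear scale, with array medians of 49.0 in limbus, 48.8 in cornea, and 50.7 in conjunctiva. The GAPDH control read 3.12, 4.58, and 3.83 times more at its 3' end than at its 5' end, in that order. For the ACTB control the ratios were 11.8, 11.2, and 10.3. The study reported that its isolated RNA appeared little degraded, and then amplified it in rounds. The part of RNA quality or amplification in these ratios and in the member values was not tested. Each gene is read from its lead probe set, the brightest by mean log2 value over the 3 arrays, unless a different one is named. Since each tissue had a single array, the error of these ratios is unknown and nothing was tested. In such pieces, fewer cells of a type and less RNA per cell cannot be told apart.

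ACTA2, the smooth muscle actin, read 431 in limbus, 76.4 in cornea, and 1847 in conjunctiva on its lead probe set 200974_at. The 3 tissues were spread over a wide range, with the limbus between the others. The conjunctiva exceeded the limbus 4.29-fold and the cornea 24.2-fold, and the limbus exceeded the cornea 5.64-fold. The 2 other ACTA2 probe sets lay between 16.2 and 28.3 in all tissues, under the array medians, and showed no such order.

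MYLK, the kinase that switches on smooth muscle myosin, read 347 in limbus, 91.6 in cornea, and 2359 in conjunctiva on 202555_s_at. On the second bright probe set, 224823_at, it had 264, 53.1, and 2039. Both gave the same order of tissues, with ratios of the conjunctiva to the limbus of 6.80 and 7.71 and of the conjunctiva to the cornea of 25.8 and 38.4. Among the 11003 genes whose lead probe set reached 100 in a tissue, MYLK ranked 26th by the ratio of the conjunctiva to the limbus and 25th by that of the conjunctiva to the cornea. Its 3 remaining probe sets stayed at 79.1 or lower.

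MYH11, the heavy chain of smooth muscle myosin, had a different form of this pattern. Its lead probe set 201497_x_at had 160 in limbus, 142 in cornea, and 701 in conjunctiva. The limbus lay close to the cornea and not between the other tissues as for ACTA2. The ratio of the limbus to the cornea was 1.12, while the conjunctiva was 4.39-fold above the limbus. The probe set 207961_x_at had 110, 98.7, and 558, and 201496_x_at had 21.4, 19.2, and 77.7, with ratios of the limbus to the cornea of 1.11 on both. These 3 probe sets carry the suffix of sequences that can match several transcripts. The other 4 MYH11 probe sets, among them 201495_x_at with the same suffix, lay between 34.1 and 65.8 and did not share the difference.

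Among the thin filament genes, TAGLN (transgelin, an actin-bundling protein) had 265 in limbus, 45.5 in cornea, and 878 in conjunctiva on 205547_s_at. The limbus exceeded the cornea 5.83-fold and the conjunctiva exceeded the limbus 3.31-fold, the same order as for ACTA2. On 1555724_s_at the values were 96.6, 87.3, and 253, so the limbus was only 1.11-fold above the cornea there. The third probe set, 226523_at, had 164, 218, and 176 and was highest in the cornea. The 3 probe sets of this gene thus placed the limbus differently.

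CNN1 (calponin 1, which inhibits the myosin motor) has 1 probe set, with 65.2 in limbus, 71.3 in cornea, and 234 in conjunctiva. The conjunctiva exceeded the limbus 3.58-fold and the cornea 3.28-fold. As deposited, the limbus and the cornea lay side by side, as for MYH11. LMOD1, a leiomodin that nucleates actin filaments, had 84.8, 60.7, and 131 on its lead probe set and at most 42.7 on the other. It was highest in the conjunctiva on both, by 1.55 and 1.92-fold over the limbus, but the limbus and the cornea changed places. SMTN, smoothelin of contractile smooth muscle, had 80.9 in limbus, 82.4 in cornea, and 78.4 in conjunctiva. Of its other probe sets, 207390_s_at had 46.0, 47.0, and 71.6, and 209427_at had 67.7, 52.4, and 61.2. No SMTN probe set reached 100, and their order differed from one to the next.

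DES, the muscle intermediate filament protein desmin, had 108 in limbus, 111 in cornea, and 199 in conjunctiva on 202222_s_at. The conjunctiva exceeded the limbus 1.85-fold and the cornea 1.80-fold, under the 2-fold line. The other DES probe set lay between 15.5 and 17.1. Desmin is also a protein of striated muscle. Of 25 skeletal muscle genes read here, 6 reached 100 in a tissue. MB (myoglobin), at 73.5, 54.6, and 177, was at least 2-fold higher in the conjunctiva than in both other tissues (1.68% of all genes by lead probe set). TNNI2, a fast troponin, at 385, 184, and 188, and MYBPC1, a myosin-binding protein, were so in the limbus (0.475%). CHRNA1, an acetylcholine receptor subunit, was so in the cornea (1.89%). The call of TNNI2 was lost under quantile normalization, division by the GAPDH and ACTB controls, and a pseudocount of 32. The skeletal actin ACTA1 and the myosins MYH1 and MYH2 stayed between 12.6 and 18.9. The summed value of the list was 2260 in limbus, 1418 in cornea, and 1662 in conjunctiva, and in the limbus 831 of it came from MYBPC1. The part of skeletal muscle in the DES values was not tested.

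RGS5, a regulator of G protein signaling and a widely used pericyte marker, set the limbus apart from the pattern of the contractile genes. Its lead probe set 218353_at had 470 in limbus, 30.9 in cornea, and 446 in conjunctiva. The limbus and the conjunctiva were side by side, and the cornea was under its array median. Among the 11003 genes reaching 100, RGS5 ranked 16th by the ratio of the limbus to the cornea and 6363rd by that of the conjunctiva to the limbus. The other bright probe sets had 199, 76.5, and 211 (209070_s_at) and 168, 29.7, and 199 (209071_s_at). All 6 RGS5 probe sets were lowest in the cornea, and on all of them the ratio of the conjunctiva to the limbus lay between 0.95 and 1.21. Which of the limbus and the conjunctiva was higher depended on the probe set and on the scaling of the arrays.

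PDGFRB, the receptor of pericytes for platelet-derived growth factor B, has 1 probe set, with 145 in limbus, 93.0 in cornea, and 160 in conjunctiva. Its order of tissues was that of RGS5 on most probe sets, but the range was small, with 1.55-fold between the limbus and the cornea and 1.10-fold between the conjunctiva and the limbus, a direction that turned when the arrays were scaled by the hybridization controls.

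**Figure D1:**
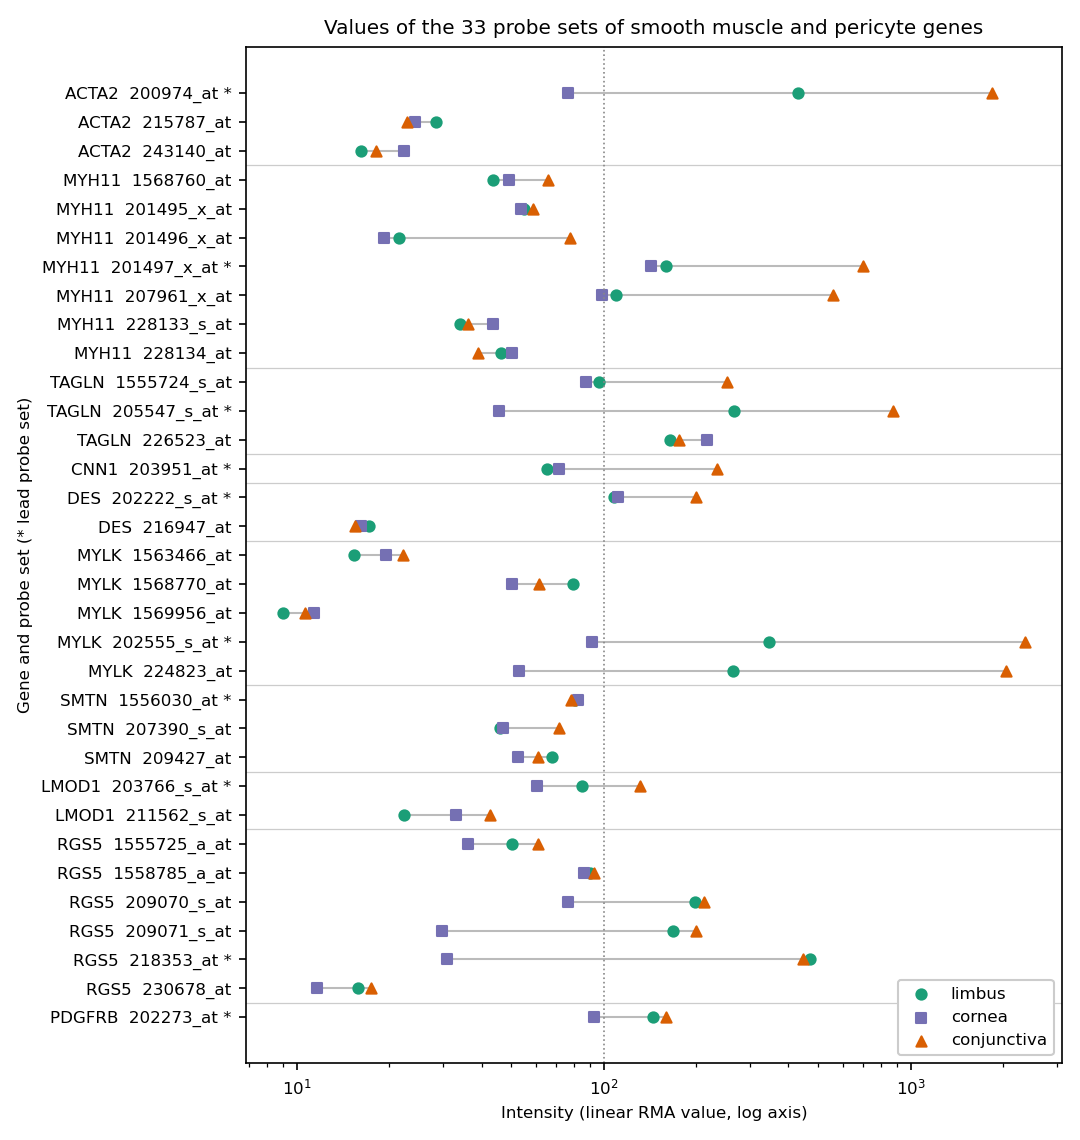
Intensity (linear RMA value, log axis) of the 33 probe sets by tissue (circles for limbus, squares for cornea, triangles for conjunctiva; 1 array each); an asterisk marks the lead probe set of a gene and the dotted line a value of 100. On the lead probe sets, the conjunctiva stands far to the right for ACTA2, MYLK, MYH11, TAGLN, and CNN1. The limbus and the conjunctiva nearly coincide on that of RGS5, at 470 and 446. Other probe sets of ACTA2, MYLK, MYH11, and TAGLN do not all show this.

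By the rule of the study, a probe set counts for a tissue when it reads at least 2-fold above both remaining tissues. For the conjunctiva, 9 of the 33 probe sets did, compared with 1.1% of all 54675 probe sets. They were 3 of MYH11, 2 each of TAGLN and MYLK, and 1 each of ACTA2 and CNN1. No member counted for the limbus (0.355% of all probe sets) or for the cornea (1.32%). Between pairs of tissues, 13 of 33 were at least 2-fold higher in conjunctiva than in cornea (3.79% of all), 7 in limbus than in cornea (2.68%), and 9 in conjunctiva than in limbus (1.67%). In the opposite directions there were 0 of 33, compared with 3.89% of all for the cornea over the conjunctiva, 1.95% for the cornea over the limbus, and 1.9% for the limbus over the conjunctiva. The 7 probe sets with limbus above cornea belonged to ACTA2, TAGLN, MYLK, and RGS5.

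Many of the member probe sets were dim. Of the 33 probe sets, 15 reached 100 in a tissue, and 8 of the 15 counted for the conjunctiva, compared with 2.41% of the 16811 probe sets with a single symbol and such a value. In the same set, 12 of 15 were at least 2-fold higher in conjunctiva than in cornea (7.7%), 7 in limbus than in cornea (5.76%), and 8 in conjunctiva than in limbus (3.05%). The conjunctiva was highest in 13 of 15 (32.3%) and the cornea lowest in 12 of 15 (31.4%). The exceptions to the first were the lead RGS5 probe set and 226523_at of TAGLN. Reaching 100 in any tissue favors probe sets that are high somewhere, in the members and in the array alike.

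Over the 10 genes, the median log2 difference was 2.01 for conjunctiva minus cornea, 0.56 for limbus minus cornea, and 1.31 for conjunctiva minus limbus, where the medians over all 19775 genes were -0.01, -0.05, and 0.04. The limbus stood at 14.7% of the conjunctiva for MYLK, 22.8% for MYH11, 23.3% for ACTA2, 27.9% for CNN1, and 30.2% for TAGLN, but at 90.5% for PDGFRB, 103% for SMTN, and 106% for RGS5. In between were DES at 54.0% and LMOD1 at 64.5%. The cornea stood at 3.88% of the conjunctiva for MYLK, 4.14% for ACTA2, 5.18% for TAGLN, and 6.94% for RGS5, while it kept 20.3% for MYH11 and 30.5% for CNN1.

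**Figure D2:**
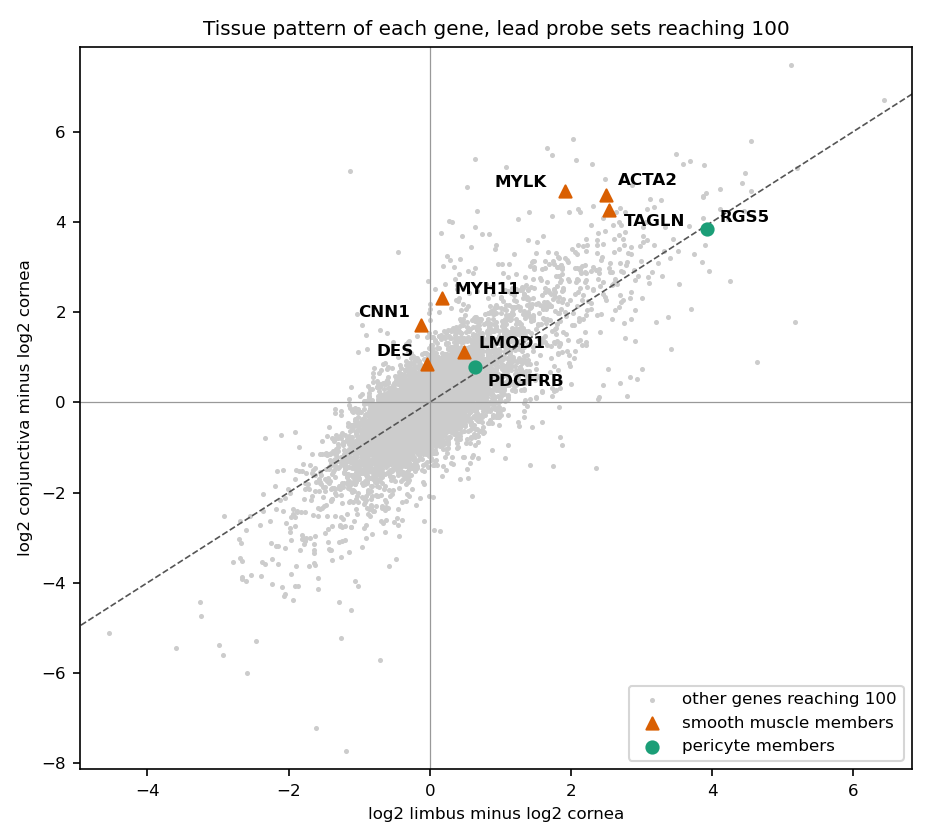
Log2 difference of limbus minus cornea (x axis) and of conjunctiva minus cornea (y axis) for the lead probe sets of 11003 genes that reached 100 in a tissue, with 1 array per tissue; triangles are smooth muscle members, circles pericyte members, and on the dashed line the limbus equals the conjunctiva. MYLK, ACTA2, and TAGLN lie high above the line, MYH11, CNN1, and DES above the point where the limbus equals the cornea, and RGS5 near the line, at a limbus to cornea ratio of 15.2.

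Some other genes of smooth muscle contraction and its cytoskeleton showed the same kinds of pattern, while most did not count for any tissue. Of 35 genes listed, 31 have a named probe set, and 6 of the 31 were at least 2-fold higher in the conjunctiva than in both other tissues, compared with 1.68% of all genes by lead probe set. None counted for the limbus (0.475%) or the cornea (1.89%). MYL9, the regulatory light chain that MYLK phosphorylates, had 128 in limbus, 38.5 in cornea, and 672 in conjunctiva. TPM2, a muscle tropomyosin, had 224, 104, and 712, and PRKG1, the cGMP-dependent kinase of smooth muscle relaxation, had 102, 39.8, and 274. In these 3 genes the limbus lay between the other tissues, as for ACTA2 and MYLK.

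In ACTG2 and ITGA8 the limbus was lower than the cornea. ACTG2, the actin of visceral smooth muscle, had 122 in limbus, 236 in cornea, and 773 in conjunctiva. ITGA8, an integrin of contractile mesenchymal cells, had 86.5, 160, and 366, and a second bright probe set repeated this with 61.5, 186, and 390. KCNMB1, the smooth muscle subunit of the large-conductance potassium channel, had 50.7, 37.2, and 131, with the limbus 1.36-fold above the cornea. Its partner KCNMA1, which forms the pore of that channel and was named after its values were seen, had 1001 in limbus, 66.4 in cornea, and 1664 in conjunctiva, so the limbus and the conjunctiva were both at least 15.1-fold above the cornea. The list as a whole was less uniform than the members. Its median log2 difference was 0.82 between the conjunctiva and the cornea and 0.49 between the conjunctiva and the limbus. By lead probe set, 25 of its genes were highest in the conjunctiva, 4 in the cornea, and 2 in the limbus. The 4 were CALD1, or caldesmon (340, 440, and 358), PDLIM7 (84.9, 112, and 111), and 2 abundant genes that most cells use. These were RHOA (3663, 5348, and 3863) and MYL6 (3447, 5277, and 4527).

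Transcription factors of the smooth muscle program were read next. MYOCD (myocardin), the coactivator that drives smooth muscle genes with serum response factor, had 51.7 in limbus, 38.0 in cornea, and 111 in conjunctiva. HEY2, a Notch target of arterial smooth muscle and endothelium, had 122, 40.0, and 518, and its other bright probe set had 129, 28.4, and 405. FOXC2, a forkhead factor of vessels and their mural cells, had 31.9, 24.4, and 149. These 3 of the 13 measured genes counted for the conjunctiva, compared with 1.68% of all genes. SRF itself had 363, 202, and 318, a range of 1.80-fold. KLF4, a factor of stratified epithelia that also represses smooth muscle genes, counted for the cornea, with 3770 in limbus, 10012 in cornea, and 3006 in conjunctiva (1.89% of all genes), but not under quantile normalization or division by the hybridization controls. MEF2C and HEY1, named after their values were seen, had 237, 35.7, and 440 and 535, 102, and 675, with the limbus nearer to the conjunctiva than to the cornea on the log2 scale.

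Other pericyte and mural genes did not share 1 pattern. Of 17 measured, 10 reached 100. The cornea was lowest in 9 of the 17, compared with 6563 of all 19775 genes, and in 6 of the 10. EBF1, a factor found in mural cells among others, had 212 in limbus, 47.2 in cornea, and 525 in conjunctiva. KCNJ8, the channel pore of pericytes, had 46.2, 34.3, and 93.4. These 2 counted for the conjunctiva (1.68% of all genes). ANGPT1, a pericyte ligand of the endothelial receptor TEK, counted for the limbus (0.475%) with 67.8, 26.4, and 31.6, a call lost with a pseudocount of 32. CSPG4 (NG2), a common pericyte surface marker, lay between 25.7 and 28.3, and ABCC9 between 28.7 and 37.2. The brightest probe set of NOTCH3, the Notch receptor of mural cells, had 132.8, 121, and 69.8 and was lowest in the conjunctiva, while the other bright one had 97.2, 84.2, and 110. Over these genes and the 2 pericyte members, RGS5 had the highest ratio of the limbus to the cornea, 15.2, and EBF1 the next, 4.49.

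Of the platelet-derived growth factor genes, PDGFC counted for the conjunctiva (1.68% of all genes), with 338 in limbus, 121 in cornea, and 935 in conjunctiva. PDGFB, the ligand through which endothelium recruits pericytes, had 139, 99.9, and 180, the same order and a range as small as that of its receptor PDGFRB. PDGFD had 147, 92.4, and 148 on its lead probe set and 151, 35.9, and 95.8 on another, where the limbus was highest. PDGFA, with 183, 359, and 261, was the only 1 of the 6 ligand and receptor genes to be highest in the cornea by lead probe set, and its other probe set had 236, 212, and 229. The fibroblast receptor PDGFRA had 720, 553, and 1029.

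Markers of other cell types differed between the same tissues. All 14 endothelial genes were lowest in the cornea by lead probe set, compared with 6563 of all 19775 genes. The summed value of the 14 was 2438 in limbus, 1073 in cornea, and 3425 in conjunctiva. The median limbus level of the endothelial genes was 83.8% of the conjunctiva, compared with 97.6% over all genes and 29.0% over the 8 smooth muscle genes. Single endothelial genes ranged from 43.3% for VWF to 138% for EMCN. RGS5 (106%) and PDGFRB (90.5%) lay within that wide range. So did SMTN (103%), LMOD1 (64.5%), DES (54.0%), and the median over all genes. PECAM1 had 462, 45.9, and 675, VWF had 407, 106, and 940, and EMCN had 223, 41.6, and 162. A second EMCN probe set had 89.1, 39.0, and 180, so which of the limbus and the conjunctiva was higher depended on the probe set, and a second of PECAM1 had 126, 136, and 148. Of 13 fibroblast genes, 4 counted for the conjunctiva (1.68% of all genes), including COL3A1 with 519, 46.3, and 2105. TNC counted for the limbus (0.475%) and LOX for the cornea (1.89%), a call lost under division by the hybridization controls. The summed value of the 13 genes was 14788, 16608, and 26707, of which DCN gave 5084, 9335, and 6415. The 8 keratocyte genes had summed values of 8270, 24316, and 4277. Most of the sum in the cornea came from ALDH3A1 (9230), PTGDS (7945), and ALDH1A1 (6432), while KERA gave 312. The cornea piece held the epithelium as well, so this sum is not a measure of keratocytes alone. KRT12, of the corneal epithelium, was highest in the cornea (8068), MUC5AC, of goblet cells, in the conjunctiva (1618), and KRT13 in the limbus (5797). ACTA2 is also made by myofibroblasts and by the myoepithelium of glands. The myoepithelial receptor OXTR stayed between 22.6 and 55.0, and KRT14, which basal epithelium shares, had 4580, 53.1, and 5521. The part of these cells in the member values was not tested.

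**Figure D3:**
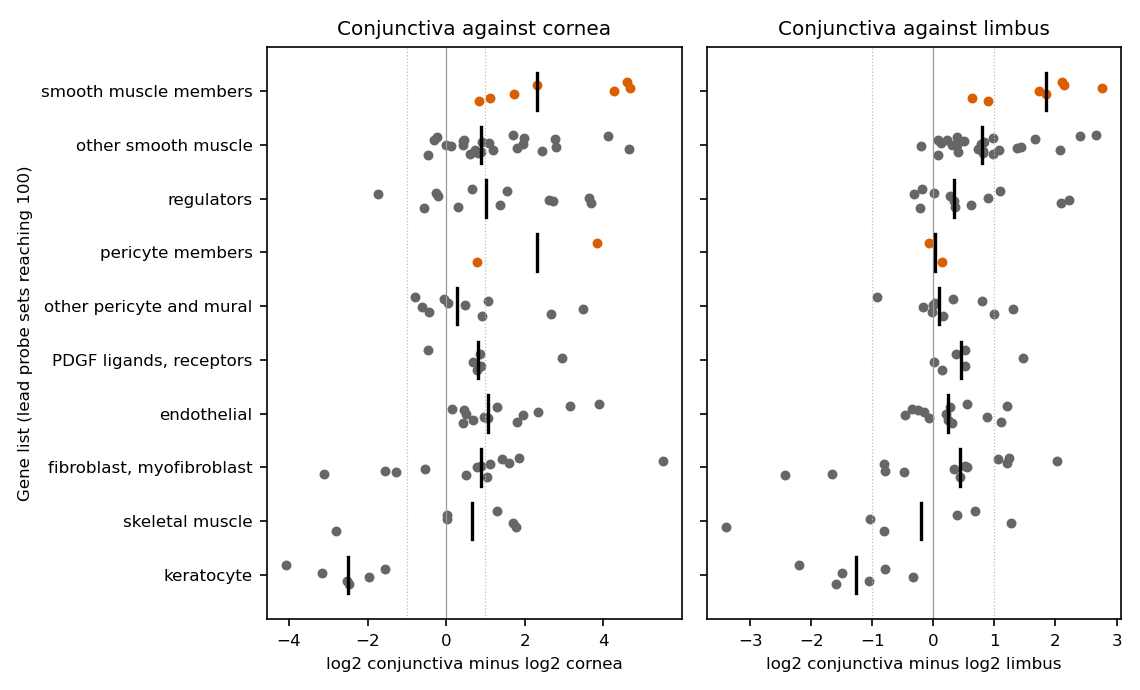
Difference of log2 values between the conjunctiva and the cornea (left) and between the conjunctiva and the limbus (right) for genes of each list whose lead probe set reached 100, with 1 array per tissue; each point is a gene, the bar is the median, and dotted lines mark a 2-fold difference. The smooth muscle members have a median of 1.84 against the limbus, compared with 0.24 for endothelial and 0.03 for pericyte members.

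The scaling of the arrays bears on the limbus most. Each array was normalized separately with a reference pool, and the mean of the bacterial hybridization controls added to every sample was 559 in limbus, 882 in cornea, and 746 in conjunctiva. Division by these controls raised the limbus against the cornea by 0.66 and against the conjunctiva by 0.42 on the log2 scale for every probe set. Under it, ACTA2 kept ratios of the conjunctiva to the limbus and of the limbus to the cornea of 3.21 and 8.90, MYLK of 5.09 and 5.98, MYH11 of 3.29 and 1.77, TAGLN of 2.48 and 9.19, and CNN1 of 2.68 and 1.44. The place of the limbus beside the cornea in MYH11, CNN1, and DES was thus not kept, while the conjunctiva stayed at least 2-fold above the limbus in the same 5 genes. The ratio of the conjunctiva to the limbus was then 0.71 for RGS5 and 0.83 for PDGFRB. Of the other genes above, KCNMB1, EBF1, KCNJ8, MYOCD, MB, and VWF no longer counted for the conjunctiva under it, and of the 4 fibroblast genes COL1A1, COL1A2, and FN1 did not. These 3 and KCNJ8 also lost the call under quantile normalization, KCNJ8 by the array median, and KCNMB1, MYOCD, MB, and KCNJ8 with a pseudocount of 32. Under quantile normalization, division by the array median, and division by the GAPDH and ACTB controls, all 9 counted probe sets of the members were still counted for the conjunctiva.

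**Figure D4:**
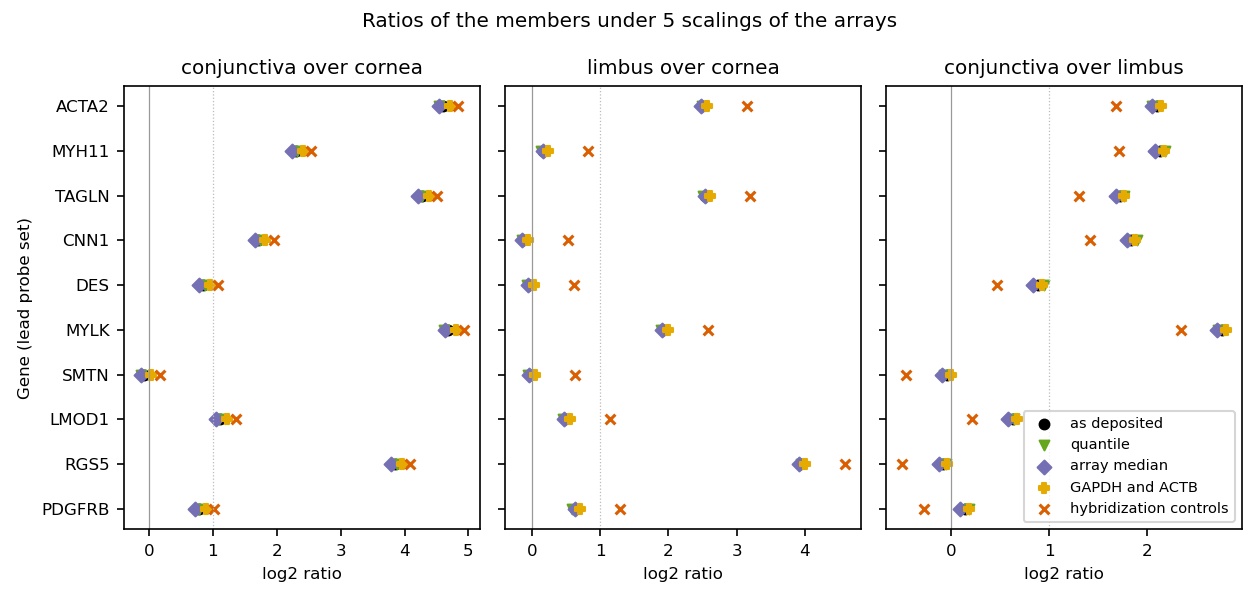
Log2 ratio between tissues for the lead probe set of each of the 10 genes, as deposited (circles) and after 4 other scalings of the 3 arrays, with the dotted line at a 2-fold ratio. Division by the hybridization controls (crosses) shifts the limbus ratios of all genes by the same amount, and MYLK, at a conjunctiva to limbus ratio of 5.09, stays the farthest from 1.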

How the data were processed

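RNA of 3 tissues was measured on 1 array each. The authors amplified the RNA in rounds, scanned human U133 Plus 2.0 arrays, and ran justRMA on each array apart, combined with an unchanging set of reference arrays. RMA is also what the submitters' processing notes name, with no version. The deposited table gives linear intensities, 0 of them missing. They were used without further normalization. Since each array was normalized apart from the others, differences of scale can remain. The human probes were not matched to the vervet genome, so ratios are taken within a probe set, and levels of different probe sets or summed over a list describe the signal and not amounts of transcript.

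Gene names come from an old annotation of this array, in which 41097 probe sets have 1 symbol, 1801 have several, and 11777 are not named here. A probe set shared by DES and SUPT20H was left out. Gene locations and promoter or protein sequences were not used here. The members and 15 gene lists were chosen with earlier results of these data known. Of list genes, those counted for a tissue, the defining markers of other cell types, and the 5 genes nearest to selected members were named; any further list gene was named after its values were seen. A probe set counts for a tissue at a ratio of at least 2 to both others. With 1 array per tissue, their number limits the precision and no test was made. The rules were tested on simulated data. Computation used Python 3.11.15, numpy 2.4.6, and pandas 2.3.3, and plots matplotlib 3.10.9. A total of 11 alternatives varied the scaling, a pseudocount of 32, the level, the ratio, and the choice of probe set.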

Additional observations from a re-analysis of the deposited data

How the results depend on the processing

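Over the 9 alternatives that change single values, 212 of 264 recomputed log2 differences of single genes stayed within 1.5-fold and on the same side of a 2-fold difference, 47 moved, and 5 turned. Only differences of at least 2-fold as deposited could count as turned. A change of sign in a smaller difference, as for PDGFRB under the hybridization controls, was not counted so. No paired analysis was possible because each tissue had 1 array. The choice of probe set mattered most. Without probe sets ending in _x_at or _s_at, 3 of 9 counted probe sets for the conjunctiva were left, 4 were 2-fold higher for conjunctiva over cornea, 3 for limbus over cornea, and 3 for conjunctiva over limbus. The highest tissue was conjunctiva for 5 genes, limbus for 2, and cornea for 2, the median log2 difference was 0.78 for the conjunctiva minus the cornea and 0.14 for the conjunctiva minus the limbus, and TAGLN turned to -0.31 (conjunctiva minus cornea) and -0.41 (limbus minus cornea). This setting leaves fewer probe sets, and drops the lead ones of MYH11, MYLK, TAGLN, DES, and LMOD1. With each gene read as the median of its probe sets, the medians were 0.60 and 0.26, the highest tissue was limbus for 2 genes and cornea for 0, and ACTA2 turned to -0.082 (conjunctiva minus cornea) and -0.31 (conjunctiva minus limbus) and MYLK to -0.36 (conjunctiva minus limbus). With the mean they were 1.18 and 0.72, and 0 genes were highest in the limbus or the cornea. Division by the hybridization controls gave 13 probe sets 2-fold higher for limbus over cornea, 3 genes highest in the limbus and 0 in the cornea, medians of 1.22 (limbus minus cornea) and 0.89 (conjunctiva minus limbus), and removed the weaker TAGLN probe set from the counted ones. By the GAPDH and ACTB controls the highest tissue was limbus for 2 genes and cornea for 0, and with probe sets reaching 100 the cornea also had 0. At a ratio of 1.5, 14 probe sets were higher in the conjunctiva than in the limbus.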

Other observations

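Paralogs and non-muscle isoforms of the members were also read. Of 19 measured, 2 were at least 2-fold higher in the conjunctiva than in both other tissues, compared with 1.68% of all genes. These were ACTC1, the cardiac actin, and RGS2, a relative of RGS5 that acts in vascular relaxation. ACTC1 had 64.2 in limbus, 60.7 in cornea, and 344 in conjunctiva, and RGS2 had 400, 294, and 1213. The muscle actins are close paralogs, and how far the ACTC1 probes read another actin was not tested. MYLK3, the cardiac myosin light chain kinase, counted for the cornea (1.89% of all genes), with 59.5, 125, and 39.8. It did not under division by the hybridization or the GAPDH and ACTB controls or with a pseudocount of 32. None of the non-muscle forms counted for a tissue. MYH9, a non-muscle myosin heavy chain, had 268, 316, and 326, MYH10 had 534, 480, and 766, CNN2 had 202, 235, and 268, CNN3 had 253, 265, and 398 on its lead probe set and 330, 74.9, and 201 on another, and TAGLN2 had 3549, 2897, and 2306. VIM (vimentin), the intermediate filament protein of mesenchymal cells, had 1982, 1250, and 3342.

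The genes nearest to a member by the pair of log2 differences, over 3 tissues and 11003 genes, were mostly of other kinds. For ACTA2 the nearest 5 were the complement factor CFB at a distance of 0.30, TAGLN (0.33), CD177, SLC4A4, and HLA-DQA1, with 8 genes within 0.5. For TAGLN they were SMPX, a small protein of striated muscle, at 0.11, CD177, TMEM176B, SCGB3A1, and CFB, with 13 genes within 0.5. For MYLK they were MSLN (0.44), C11orf96, CFB, PTPRC, and ACTA2, with 2 genes within 0.5. For RGS5, added after its values were seen, they were CREB5 (0.23), LDB2, TMEM150C, CRNN, and KRT15. With 3 tissues, 2 numbers describe a pattern, so nearness here is a description only.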
